A study of Danio rerio with 16 samples.

Results

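The 8 libraries described here, of 16 in the series, are the paternal-cross comparison of homozygous and heterozygous miR-214 mutants. They were chosen by genotype label as the 4 gonad pools labelled homozygous (KO) and the 4 labelled heterozygous (HET) among offspring of a heterozygous mother and a homozygous mutant father. The maternal cross, 4 KO and 4 HET pools from a homozygous mother and a heterozygous father, is used only for comparison. Poly(A) RNA of pooled zebrafish gonads was sequenced, and the series title names sex determination and gsdf as its subject.

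The mutation was made with CRISPR-Cas9 and 2 sgRNAs, the fish were beyond generation F3, and the strain is given as mz 06de, tg(vasa:eGFP) with breed TUE, while the shared husbandry note names a mix of AB and TU wherever nothing else is stated. Every group therefore carries at least 1 mutant copy and a green reporter driven by the germ-cell gene vasa, and no wild-type pool is among the 16. The extent of the mutation is not given in the sources used here. KO pools 1 to 3 held 9 gonads and KO pool 4 held 8, and each HET pool held 9. In the maternal cross the KO pools held 9, 9, 9 and 8 gonads and each HET pool 7. Titles give the age as 31 days post fertilisation and another label gives 27. The labels do not give the sex of the gonads or the clutch a pool came from, so p-values measure the spread between pools, which may be technical.

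As background, miR-214 is a small RNA of vertebrates that lies beside miR-199 on the opposite strand of an intron of a dynamin 3 gene, and in zebrafish embryos it has been linked to the Hedgehog regulator sufu. Juvenile zebrafish gonads first pass through a stage with immature oocytes, and they then become ovaries, or testes in which the oocytes are lost. Somatic cells steer that choice. A sox9 copy marks supporting cells of the testis side, which also express gsdf and amh. Granulosa cells, the supporting cells of the ovary, express gsdf as well. Their markers are foxl2 and the aromatase gene, and interstitial cells make steroids. Macrophages, blood vessels and stromal cells are part of the organ throughout.

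The targeted locus did not follow the genotype labels in this cross. MIR214 (ENSDARG00000083042) had 5, 7, 3 and 4 reads in KO-labelled pools 1 to 4 and 0, 2, 0 and 0 reads in HET-labelled pools 1 to 4. All KO-labelled pools were above all HET-labelled pools (two-sided exact permutation test on CPM, p = 0.0286, the smallest that 4 against 4 pools allow). The maternal cross had 0, 0, 1 and 4 reads in its KO pools and 3, 4, 9 and 3 in its HET pools (exact permutation p = 0.114). A poly(A) library catches little of a microRNA precursor, the mutated bases are not known here, and whether these few reads report the lesion was not tested. The pools are therefore called KO-labelled and HET-labelled throughout, and each direction below is that of the labels. The host gene dnm3a had 322 to 528 reads in KO-labelled and 393 to 610 in HET-labelled pools (exact permutation p = 0.486).

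In the maternal cross 43 genes were called, or 4 when only its own libraries were fitted. In the paternal cross 23.2% of all tested genes were called. The 2 crosses shared 1 fit, and whether their overlap exceeds that share was not tested. Of 15 genes called in both crosses, 11 had the same direction in each and 4 the opposite. Of the same-direction genes, 9 matched 1 position in the RefSeq annotation of assembly GRCz12tu. Of these 9, 3 (33.3%) were on the chromosome that carries mir214, where 651 of 14990 matched tested genes (4.34%) lie. These genes were picked out after their values had been seen. RALGPS2, 22 annotated genes from mir214, measured 37.4, 38.4, 39.5 and 39.5 CPM in KO-labelled pools 1 to 4 and 30.5, 26.0, 27.0 and 30.4 CPM in HET-labelled pools 1 to 4. Its KO-labelled pools were all higher, and its log2 fold change was 0.44 here and 0.43 in the maternal cross. BLOC1S2, 187 genes away, fell in both crosses, with 9.51 ± 0.944 CPM against 17.6 ± 2.01 CPM (SD, n = 4) here (log2 fold change -0.89, maternal cross -0.97). PPP4R4, 590 genes away, also fell in both, by 0.83 log2 here and by 1.896 log2 in the maternal cross, and did not pass here without HET-labelled pool 3 at adjusted p = 0.0611. On that chromosome 153 of the 651 genes (23.5%) were called in the paternal cross, against 23.2% of all genes tested.

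Counts here are reads assigned to a gene, and levels are given as CPM, counts divided by the library size after scaling for composition. A value given after log2 is a log2 fold change, KO-labelled over HET-labelled, and ± gives the SD over 4 pools for CPM and the SE for fold changes. The paternal-cross libraries held 22.6 to 30.1 M counted reads, with every HET-labelled pool (26.4 to 30.1 M) above every KO-labelled pool (22.6 to 24.3 M). A floor of 3 reads corresponds to 0.105 to 0.127 CPM and covers counting error only. Germ-cell RNA was present under both labels: DDX4, which encodes Vasa, was at 1214 ± 51.2 CPM against 1215 ± 128 CPM (SD, n = 4; KO against HET). The leading axis of variation within the 4 groups of the series held 31.8% of it. Along that axis the KO-labelled pools scored -4.11 to 41.5 and the HET-labelled pools -61.8 to -13.7, with no overlap, so in the paternal cross the axis and the label cannot be told apart. In the maternal cross the scores overlapped, at -18.9 to 48.0 in KO pools and -31.7 to 59.3 in HET pools. KO-labelled pool 4 and HET-labelled pool 3 were the 2 ends of the axis in the paternal cross. Counts of calls with the axis as a covariate and without either of these pools stand beside those of each list below, and a p given after a pool that is left out is the adjusted p of that gene in the fit without it.

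Between the labels, 5034 of 21683 tested genes passed an adjusted p of 0.05 (called, 23.2%), with 3052 higher in KO-labelled pools (14.1%) and 1982 lower (9.14%). In 5835 of the 21683 (26.9%) the CPM values of the labels did not overlap, in either direction. That held for 2580 of the 3052 higher (84.5%) and 1526 of the 1982 lower genes (77.0%). Lack of overlap was thus more frequent among called genes, and it does not set 1 called gene apart from the other called genes. Upper-quartile scaling gave 3577 higher and 1101 lower and moved the median of all genes by 0.08 on the log2 scale, from 0.02 to 0.09. Past a log2 fold change of 1 in size there were 1223 rises (large rises, 5.64%) but 39 falls (0.180%). The large rises were genes of low abundance in HET-labelled pools, with a median of 1.28 CPM there (quartiles 0.500 and 3.24), where the median of all tested genes was 7.15 CPM. HET-labelled pools are the base of the fold change, so abundance read there leans low for rises and high for falls. In 97 large rises every HET-labelled pool had under 10 reads, against 0 large falls and 0 genes called lower. Genes that scarce there passed the filter only through pools of other groups and could hardly be called as falls. Together the large rises took 0.777, 0.447, 0.457 and 0.609% of the CPM in HET-labelled pools 1 to 4 and 1.53, 1.44, 1.15 and 1.99% in KO-labelled pools 1 to 4. The 39 large falls were scarce too, with a median of 1.49 CPM in HET-labelled pools (quartiles 0.785 and 4.21). Without a cut on size, the 3052 genes called higher had a median of 2.99 CPM. Genes called lower, also without that cut, were abundant, with a median of 53.8 CPM in HET-labelled pools (quartiles 27.3 and 111). As a class the genes called lower moved little, with a median log2 fold change of -0.38. They took 27.7% of the CPM in HET-labelled and 23.4% in KO-labelled pools.

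**Figure D1:**
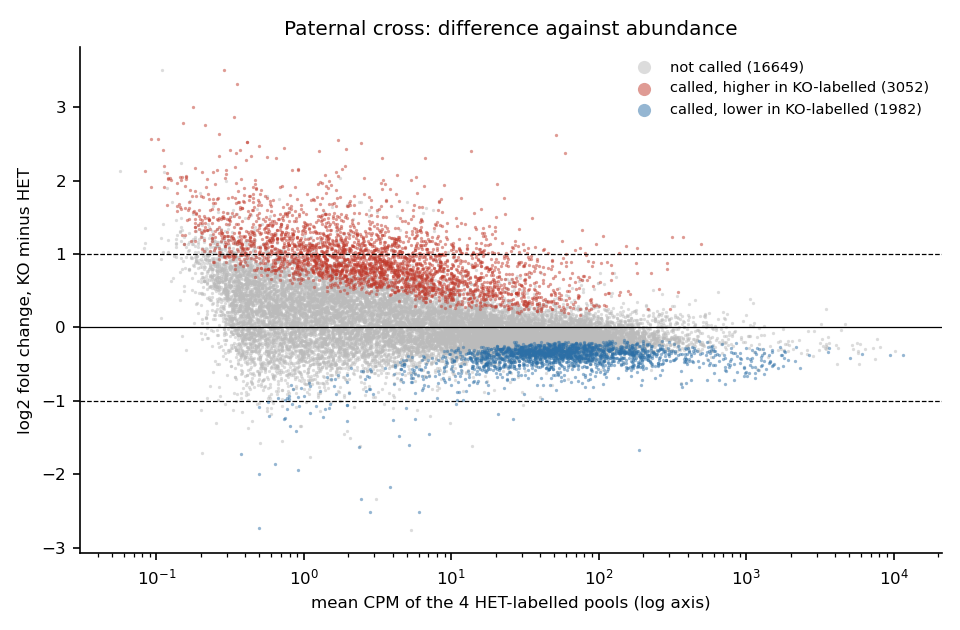
Log2 fold change of KO-labelled against HET-labelled pools (vertical axis) for each tested gene against its mean CPM in the HET-labelled pools (horizontal log axis), with called genes coloured by direction. Most of the 1223 large rises lie at the low-abundance end (median 1.28 CPM), as do the 39 large falls (median 1.49 CPM). Most of the 1982 lower genes, taken without a cut on size, lie at the abundant end (median 53.8 CPM), close to the zero line. The horizontal axis is the base of the fold change, so it leans low for rises and high for falls.

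Of the 1223 large rises, 1107 have a symbol and 123 (10.1%) belong to 1 of the 32 gene lists described below. By the naming rule (symbol, at least 1 CPM on average, called, no overlap between the labels), the 15 largest rises are led by cxcl11.4, a chemokine gene of the interferon-induced CXCL11 type (log2 fold change 3.51), and SP8 (ENSDARG00000011870), a zinc-finger transcription factor (log2 3.31). INHBA (ENSDARG00000024759), an activin subunit, followed (log2 2.88). lgals3bp.1, a galectin-3-binding protein gene, was the most abundant of the 15, with 376, 427, 125 and 345 CPM in KO-labelled pools 1 to 4 and 101, 31.0, 31.6 and 42.8 CPM in HET-labelled pools 1 to 4. Its lowest KO-labelled pool, 3, was only a little above its highest HET-labelled pool, 1 (log2 fold change 2.63 ± 0.49 SE, adjusted p = 0.00625). The others were the secreted progranulin-family gene grna.1 (72.5 ± 33.1 CPM against 13.7 ± 4.43 CPM, log2 fold change 2.41), the lysosomal cholesterol carrier gene NPC2 in the copy ENSDARG00000096979 (log2 2.41), the homeobox gene nkx3.3 (log2 2.53), the protocadherin pcdh1a4 (log2 2.53), the Nogo receptor family member rtn4rl2a (log2 2.52), RAB3C (log2 2.41), STAR (log2 2.44), si:dkey-78k11.9 (log2 2.47), zgc:194655 (log2 2.45), si:dkeyp-80c12.8 (log2 2.41) and si:dkey-238c7.13 (2.38, 306 ± 116 CPM against 58.8 ± 28.2 CPM). Of these 15, 12 kept the call in each of 8 fits that leave out 1 pool. The exceptions were INHBA, lost without HET-labelled pool 3 at adjusted p = 0.0532 or KO-labelled pool 4 at 0.0558, si:dkeyp-80c12.8, lost without HET-labelled pool 2 at adjusted p = 0.0680, HET-labelled pool 3 at 0.0782, HET-labelled pool 4 at 0.0653 or KO-labelled pool 4 at 0.0869, and STAR, described below. The other NPC2 copy, ENSDARG00000090912, fell by 0.57 log2, and the other SP8 copy, ENSDARG00000056666, was not called. Near-identical copies such as those of the grn genes may share reads.

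The 15 largest falls by the same rule are led by a clock gene, NR1D1 (log2 -2.52). Beside it stood 2 other clock genes, PER1 (ENSDARG00000056885, log2 -1.45) and nr1d2a (log2 -1.25), and the autophagy kinase ULK2 (log2 -0.99). The rest were not tested for a common role. Among them were a cytochrome P450, cyp2aa2 (log2 -2.17), the hyaluronidase hyal6 (log2 -1.17), the matrix protease MMP16 (log2 -1.101), the growth factor FGF6 (log2 -1.28) and the cytokine osm (log2 -1.25). The others were LRIT1 (ENSDARG00000099406, log2 -1.63), MLLT11 (log2 -1.05), si:ch73-116b16.3 (log2 -2.52), si:ch211-42g2.1 (log2 -2.34), another clone-named gene (log2 -1.48) and si:ch211-161h7.5. The last was the most abundant of the 15, with 58.8 ± 45.3 CPM against 188 ± 31.6 CPM (log2 fold change -1.68), but passed only without KO-labelled pool 3 among the 8 fits that leave out 1 pool. Of the 15, 9 kept the call in all 8 such fits. The call of hyal6 held only without HET-labelled pool 2 or 4 (adjusted p up to 0.134 otherwise), that of the clone-named gene ended without HET-labelled pool 2 at adjusted p = 0.0574, HET-labelled pool 3 at 0.0756, KO-labelled pool 1 at 0.0689 or KO-labelled pool 4 at 0.0808, that of si:ch73-116b16.3 without HET-labelled pool 3 at adjusted p = 0.0519, HET-labelled pool 4 at 0.0526 or KO-labelled pool 4 at 0.0637, that of cyp2aa2 without HET-labelled pool 4 at adjusted p = 0.0588 or KO-labelled pool 4 at 0.0796 and that of MMP16 without KO-labelled pool 4 at adjusted p = 0.0503.

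Macrophage genes were higher in KO-labelled pools for most of their number. Of 35 tested members 23 were called higher and 2 lower, 22 of the 23 were large rises, and the list's median log2 fold change was 1.303 against 0.02 over all genes tested. Read against the background, 65.7% of this list was called higher and 14.1% of all genes. IRF8, a transcription factor needed for macrophage development, measured 11.9, 11.3, 7.68 and 11.6 CPM in KO-labelled pools 1 to 4 and 4.41, 2.92, 2.00 and 4.08 CPM in HET-labelled pools 1 to 4. All KO-labelled pools were above all HET-labelled pools, with pool 3 the lowest of the first and pool 1 the highest of the second (log2 fold change 1.66 ± 0.27 SE, adjusted p = 0.00536). The complement gene c1qa, made by tissue macrophages, measured 15.3, 14.3, 7.47 and 13.0 CPM in KO-labelled pools 1 to 4 and 4.68, 2.54, 2.48 and 3.83 CPM in HET-labelled pools 1 to 4. Pool 3 again was the lowest KO-labelled pool, without overlap (log2 fold change 1.89 ± 0.33 SE, adjusted p = 0.00577). A cathepsin S copy, ctss2.2, rose as well (27.0 ± 7.62 CPM against 8.27 ± 2.54 CPM, log2 fold change 1.71). Each of these 3 kept its call in all 8 fits without 1 pool and with the axis as covariate (IRF8 at 1.04, adjusted p = 0.0172).

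Further members are examples only, chosen after their values were seen. The pore-forming protein gene MPEG1 (ENSDARG00000055290) rose by 1.96 log2, the receptor for colony-stimulating factor csf1ra by 1.396 log2, the myeloid regulator SPI1 by 1.64 log2, the scavenger receptor marco by 1.73 log2 and the antigen-presentation chaperone cd74a, at 254 ± 67.2 CPM against 107 ± 25.8 CPM, by 1.24 on the log2 scale. Not called were the 4 MFAP4 copies (log2 0.17 to 0.49), NCF1, apoc1, CTSC, cxcl8a, il1b and tnfb. The 2 members called lower were AIF1L, which fell by 0.30 log2 with overlap (adjusted p = 0.0446), and a second cathepsin S copy, ctss2.1. At 962 ± 137 CPM against 1316 ± 113 CPM ctss2.1 made up 58.6% of the list's summed CPM and fell by 0.45 log2, a call lost without HET-labelled pool 3 at adjusted p = 0.0571 or KO-labelled pool 4 at 0.0621. The summed level of the whole list was 1886 to 2079 CPM in KO-labelled and 1830 to 2018 CPM in HET-labelled pools, which overlapped. Without ctss2.1 it was 783 to 1178 CPM in KO-labelled and 509 to 677 CPM in HET-labelled pools, with no overlap. With the axis as covariate 9 members were called higher, without KO-labelled pool 4 there were 18 and without HET-labelled pool 3 also 18, and none was called lower in these 3 fits. In bulk pools, more cells of a type and more RNA per cell cannot be told apart, here and for every list below.

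Lymphocyte and neutrophil lists had smaller medians. Among 26 T cell genes 8 were called higher (30.8%, median 0.60), among 18 B cell genes 6 higher (33.3%) and 1 lower (median 0.69), and among 19 neutrophil genes 6 higher (31.6%) and 1 lower (median 0.53), beside 14.1% higher and 9.14% lower over all genes. The pan-leukocyte phosphatase ptprc (CD45) rose from 14.7 to 37.3 CPM (log2 fold change 1.34), the B cell adaptor blnk from 1.33 to 3.85 CPM (log2 1.53) and the granulocyte receptor CSF3R from 3.38 to 8.09 CPM (log2 1.26), and all 3 kept the call in every fit without 1 pool. The T cell kinase lck was at 3.29 against 1.498 CPM (log2 1.14) and was not called without KO-labelled pool 4 at adjusted p = 0.0573. The B cell receptor subunit cd79b averaged 0.529 against 0.127 CPM (log2 2.01), lost without HET-labelled pool 3 at adjusted p = 0.0530 or KO-labelled pool 4 at 0.0695. Without KO-labelled pool 4, 1 member of each of the 3 lists was called higher, and without HET-labelled pool 3 there were 3, 1 and 2. With the axis as covariate 1 T cell gene and no B cell or neutrophil gene was.

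Most genes induced by interferon or of antigen presentation were also higher. Of 44 tested, 30 were called higher (68.2%, against 14.1% of all genes) and none lower, with a median of 1.03. Of the 30, 22 were large rises, a class that held 5.64% of all genes. The antiviral GTPase mxb measured 13.5, 31.0, 8.43 and 14.2 CPM in KO-labelled pools 1 to 4 and 5.45, 1.91, 1.97 and 4.25 CPM in HET-labelled pools 1 to 4. KO-labelled pool 2 stood above the other 3, and the lowest, pool 3, was still above every HET-labelled pool (log2 fold change 2.305 ± 0.44 SE, adjusted p = 0.00697). The immunoproteasome subunit psmb12 rose by 1.03 log2 and the ubiquitin-like modifier isg15, chosen after its values were seen, from 15.9 to 48.6 CPM (log2 1.61). Likewise chosen, b2m, the light chain of class I MHC, was at 127 ± 31.1 CPM against 56.0 ± 16.6 CPM (log2 1.18), not called without HET-labelled pool 3 at adjusted p = 0.0520 or KO-labelled pool 4 at 0.0530. The most abundant member, gbp3, was at 128 ± 9.28 CPM against 141 ± 16.2 CPM and was not called. With the axis as covariate 1 of the 44 was called, and 15 were without KO-labelled pool 4 and 12 without HET-labelled pool 3.

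**Figure D2:**
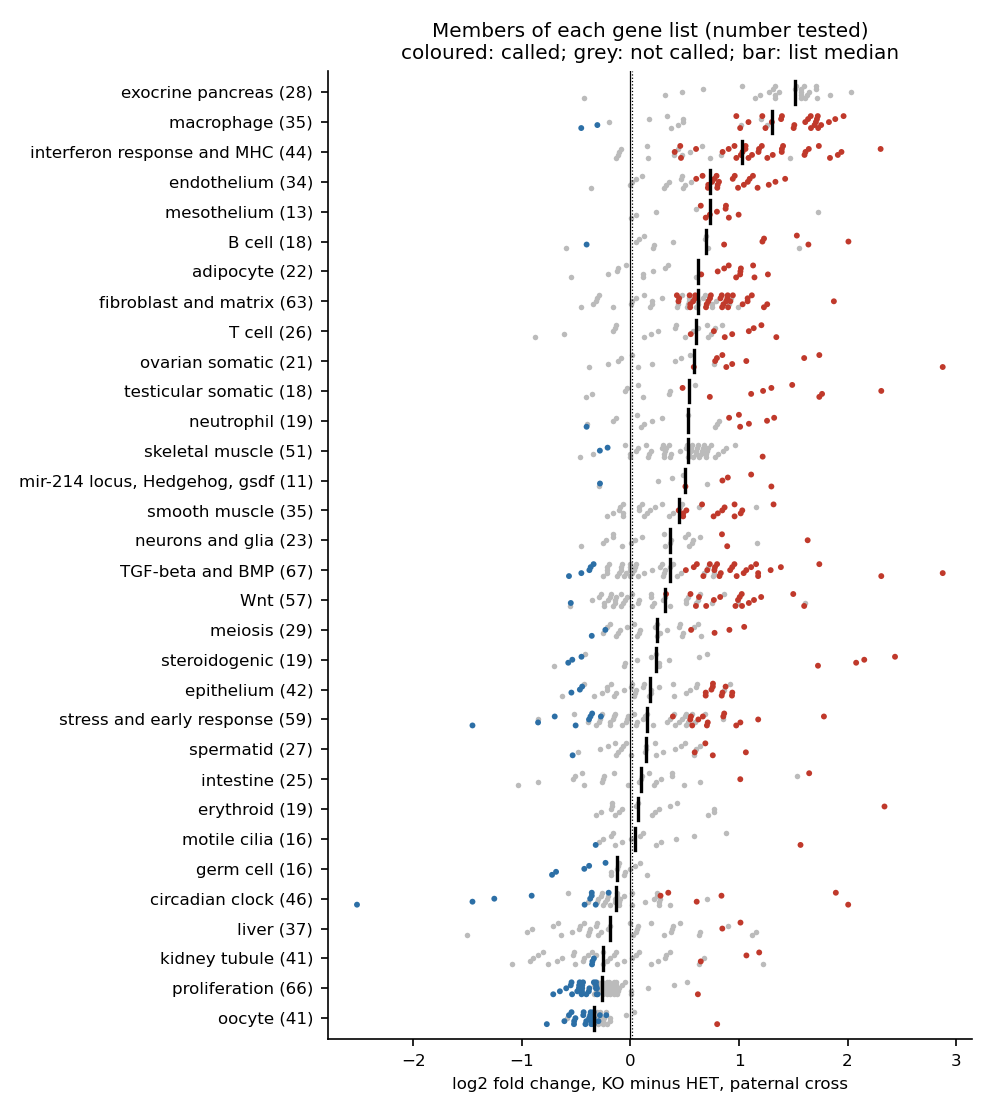
Log2 fold change (horizontal axis) of every tested member of the 32 gene lists, 1 point per gene, with called members coloured, the list median as a bar and the median of all tested genes (0.02) as a dotted line. Macrophage and interferon members centre above 1, with medians of 1.303 and 1.03, while oocyte and proliferation members sit just below 0, with medians of -0.34 and -0.26.

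On the testis side of the gonad soma, 9 of 18 genes were called higher, where 14.1% of all genes were, and none lower, 7 of them as large rises (median 0.54). Members of this list are not exclusive to the testis: gsdf is also a granulosa factor, and INHBB (ENSDARG00000040777) is in the ovarian list too. gsdf, the gonadal soma-derived factor of the TGF-beta family that the series title names, measured 296, 255, 307 and 462 CPM in KO-labelled pools 1 to 4 and 195, 130.2, 119.6 and 166 CPM in HET-labelled pools 1 to 4. All 4 KO-labelled pools were higher, pool 4 most of all, and the means were 330.1 ± 91.0 CPM against 153 ± 34.4 CPM (SD, n = 4; log2 fold change 1.11 ± 0.26 SE, adjusted p = 0.0125). Without KO-labelled pool 4 the difference was 0.90 (adjusted p = 0.0531) and with the axis as covariate 0.43 (adjusted p = 0.198), neither past the threshold. gsdf alone made up 54.8% of the list's summed CPM, which was 448 to 771 in KO-labelled and 270 to 389 in HET-labelled pools. Without it the sums overlapped, at 194 to 309 and 150 to 195 CPM.

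amh, the anti-Müllerian hormone, measured 24.9, 16.2, 26.5 and 64.2 CPM in KO-labelled pools 1 to 4 and 10.9, 5.01, 6.63 and 4.11 CPM in HET-labelled pools 1 to 4. Every KO-labelled pool was higher, and pool 4 held more than the other KO-labelled pools (log2 fold change 2.31 ± 0.62 SE, adjusted p = 0.0189). Its call was lost without HET-labelled pool 3 at adjusted p = 0.0580, HET-labelled pool 4 at 0.0539 or KO-labelled pool 4 at 0.0803. The SOX9 copy ENSDARG00000003293, a Sertoli cell transcription factor, measured 3.44, 3.99, 3.88 and 6.64 CPM in KO-labelled pools 1 to 4 and 1.65, 1.35, 1.28 and 1.01 CPM in HET-labelled pools 1 to 4. It separated the labels without overlap and in every fit without 1 pool (log2 fold change 1.77 ± 0.32 SE, adjusted p = 0.00585), while the other SOX9 copy, ENSDARG00000043923, was at 2.15 ± 0.408 CPM against 2.23 ± 0.747 CPM (log2 fold change -0.05, not called). NR5A1, which encodes the steroidogenic factor SF-1, rose in both copies, ENSDARG00000103176 by 1.49 log2 and ENSDARG00000023362 by 1.22 log2, the second lost without HET-labelled pool 3 at adjusted p = 0.0529 or KO-labelled pool 4 at 0.0527. DMRT1, a central male-pathway gene that germ cells also express, was at 20.5 ± 5.43 CPM against 13.6 ± 5.04 CPM (log2 0.59, adjusted p = 0.167), with overlap, and SOX8 at 28.9 ± 6.06 CPM against 38.4 ± 3.56 CPM (log2 -0.41, adjusted p = 0.0593). Of the 18 genes 2 were called without KO-labelled pool 4 and 3 without HET-labelled pool 3.

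Genes listed for the ovarian soma mostly moved to the same side. Members of this list are not exclusive to the ovary either, as INHBB (ENSDARG00000040777) is in both lists. Of 21 tested, 10 were called higher (47.6%, against 14.1% of all genes) and none lower (against 9.14% of all genes), with a median of 0.58. Without KO-labelled pool 4, 2 were called higher, and 2 were without HET-labelled pool 3. The gonad and coelomic transcription factor wt1b rose from 8.25 to 14.3 CPM (log2 0.80) and wnt4b from 0.164 to 0.508 CPM (log2 1.601). The follicle-stimulating hormone receptor FSHR rose by 0.88 log2, lost without HET-labelled pool 3 at adjusted p = 0.0718 or KO-labelled pool 4 at 0.0846, and the activin subunit INHBB (ENSDARG00000040777) by 1.74 log2, lost without HET-labelled pool 3 at adjusted p = 0.0534 or KO-labelled pool 4 at 0.0618. The markers that define granulosa fate were not called. The ovarian aromatase gene CYP19A1 was at 7.42 ± 1.07 CPM against 7.36 ± 0.951 CPM (log2 0.01, adjusted p = 0.968). The FOXL2 copies were at 8.31 ± 1.47 CPM against 6.22 ± 0.766 CPM (ENSDARG00000042180, log2 0.42, adjusted p = 0.119) and 3.61 ± 0.995 CPM against 3.90 ± 0.620 CPM (ENSDARG00000068417, log2 -0.11, adjusted p = 0.71). The Wnt agonist RSPO1 was at 6.51 ± 0.562 CPM against 7.51 ± 0.503 CPM (log2 -0.21, adjusted p = 0.16). With the axis as covariate no gene of either list was called.

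Among 19 steroid synthesis genes, 4 were called higher (21.1%, against 14.1% of all genes) and 3 lower (15.8%, against 9.14%), and the paralogs split. Without KO-labelled pool 4 none of the 19 was called, and without HET-labelled pool 3 or with the axis as covariate 1 was, lower. STAR, the protein that brings cholesterol into mitochondria, measured 9.63, 6.41, 9.18 and 16.9 CPM in KO-labelled pools 1 to 4 and 3.26, 0.861, 1.31 and 2.34 CPM in HET-labelled pools 1 to 4. The KO-labelled pools were all higher, pool 4 most (log2 fold change 2.44 ± 0.65 SE, adjusted p = 0.0189), and the call was lost without HET-labelled pool 2 at adjusted p = 0.0505, HET-labelled pool 3 at 0.0642 or KO-labelled pool 4 at 0.0682. The scarce CYP11A1 copy ENSDARG00000092696, a side-chain cleavage enzyme, rose with it (6.84 ± 2.46 CPM against 2.07 ± 0.610 CPM, log2 1.73), as did hsd3b1 (18.1 ± 6.803 CPM against 4.29 ± 2.24 CPM, log2 2.08) and the androgen enzyme cyp11c1 (4.07 ± 2.57 CPM against 0.917 ± 0.393 CPM, log2 2.15). In contrast, the abundant CYP11A1 copy ENSDARG00000002347 fell (163 ± 20.6 CPM against 223 ± 20.4 CPM, log2 -0.45), as did hsd3b2 (49.0 ± 6.89 CPM against 72.8 ± 5.86 CPM, log2 -0.57). The list's summed level was 774 to 898 CPM in KO-labelled and 849 to 925 CPM in HET-labelled pools, which overlapped. CYP17A1, the enzyme between progestins and androgens, was at 205 ± 26.5 CPM against 179 ± 18.5 CPM (log2 0.19, adjusted p = 0.29). Calls were lost without HET-labelled pool 3 at adjusted p = 0.0533 or KO-labelled pool 4 at 0.0653 for the scarce CYP11A1 copy, HET-labelled pool 3 at adjusted p = 0.0591 or KO-labelled pool 4 at 0.0653 for hsd3b1 and KO-labelled pool 4 at adjusted p = 0.0688 for hsd3b2. They were also lost without HET-labelled pool 2 at adjusted p = 0.0652, HET-labelled pool 3 at 0.0767, HET-labelled pool 4 at 0.0665 or KO-labelled pool 4 at 0.114 for cyp11c1 and HET-labelled pool 3 at adjusted p = 0.0788, HET-labelled pool 4 at 0.0566, KO-labelled pool 2 at 0.0641 or KO-labelled pool 4 at 0.0822 for the abundant CYP11A1 copy.

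**Figure D3:**
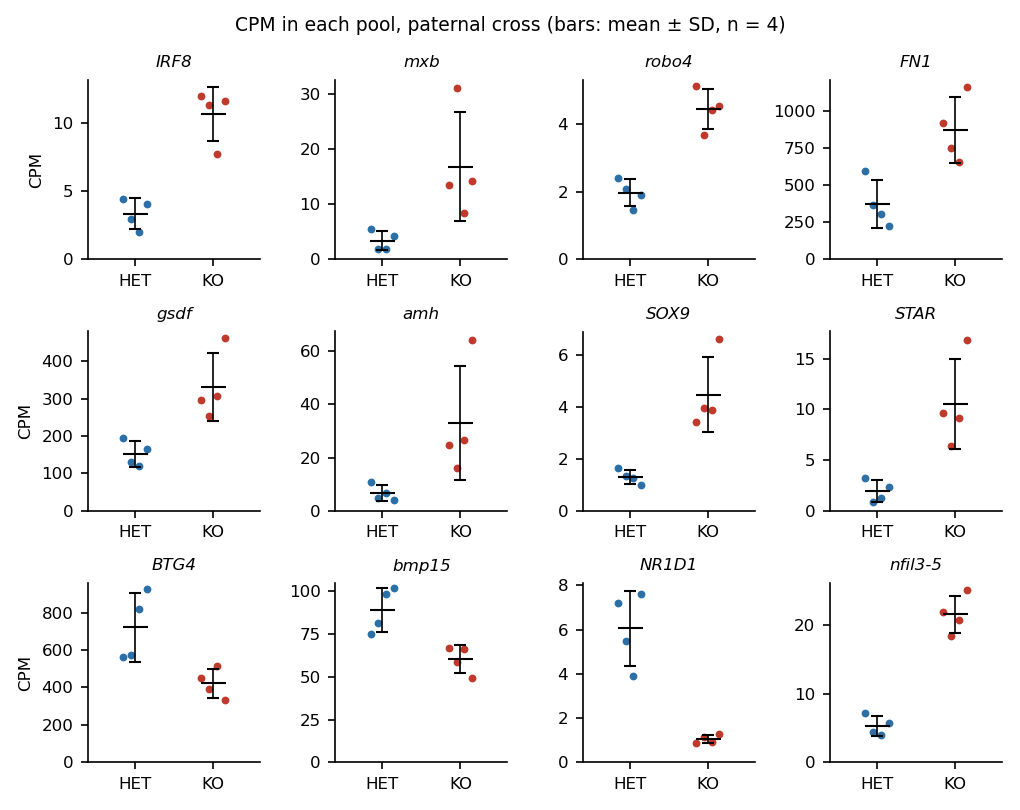
CPM (linear axis from 0) of 12 genes in each of the 8 pools, 1 point per pool in the order of pools 1 to 4, with bars at the mean ± SD of 4 pools. SOX9 and FN1 are the called copies named in the text. In all 12 panels no KO-labelled pool reaches into the HET-labelled range, and gsdf, amh and STAR are highest in KO-labelled pool 4 (462, 64.2 and 16.9 CPM). The 12 genes are a selection, and 5835 of all 21683 tested genes (26.9%) show no overlap either.

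Vessel and stroma genes were called higher more often than the 14.1% of all genes. Of 34 endothelial genes 21 were called higher (61.8%) and none lower (median 0.74). robo4, a guidance receptor of vessel cells, measured 5.13, 3.69, 4.42 and 4.53 CPM in KO-labelled pools 1 to 4 and 2.42, 2.096, 1.46 and 1.92 CPM in HET-labelled pools 1 to 4. Every KO-labelled pool was above every HET-labelled pool (log2 fold change 1.17 ± 0.16 SE, adjusted p = 0.00352). The apelin receptor aplnra rose by 1.34 log2 and MYCT1 by 1.43 log2. The VEGF receptor kdrl (36.4 ± 4.42 CPM against 23.0 ± 3.09 CPM, log2 0.66) and the junction protein cdh5 (31.7 ± 5.03 CPM against 18.3 ± 2.84 CPM, log2 0.79), both chosen after their values were seen, rose less. The scavenger receptor stab2, the most abundant member, was at 59.09 ± 5.86 CPM against 57.1 ± 5.19 CPM and was not called. The list's summed level was 371 to 475 CPM in KO-labelled and 257 to 334 CPM in HET-labelled pools. Called members numbered 10 without KO-labelled pool 4, 13 without HET-labelled pool 3 and 3 with the axis as covariate.

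Of 63 fibroblast and matrix genes, 31 were called higher (49.2%, against 14.1% of all genes), 7 of them large rises, and none lower (median 0.62). The most abundant, the fibronectin gene FN1 (ENSDARG00000006526), measured 917, 752, 657 and 1159 CPM in KO-labelled pools 1 to 4 and 595, 364, 304 and 223 CPM in HET-labelled pools 1 to 4. KO-labelled pool 3 was only a little above HET-labelled pool 1 (log2 fold change 1.23 ± 0.30 SE, adjusted p = 0.0133), and the call was lost without HET-labelled pool 3 at adjusted p = 0.0509 or KO-labelled pool 4 at 0.0534. The other FN1 copy, ENSDARG00000019815, was not called (log2 0.20, adjusted p = 0.107). The 3 members with the smallest p were the laminin chain lama4 (log2 1.08), the nidogen NID1 in the copy ENSDARG00000103129 (log2 0.73) and the collagen col18a1a (log2 0.60), each called in all 8 fits without 1 pool. The other NID1 copy, ENSDARG00000068710, was not called (log2 0.18, adjusted p = 0.177). Called members numbered 9 without KO-labelled pool 4, 13 without HET-labelled pool 3, and 1 higher and 1 lower with the axis as covariate.

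Smaller lists of the body wall and organ lining followed, to be read beside the 14.1% of all genes called higher. Smooth muscle had 14 of 35 genes called higher (40.0%, median 0.45), with MYH11 (ENSDARG00000009782), the smooth muscle myosin, from 36.1 to 61.4 CPM (log2 0.77), FLNC (ENSDARG00000018820) up by 1.32 log2 and ACTN1 by 1.03 log2, though acta2, the smooth muscle actin gene chosen after its values were seen, was at 35.3 ± 6.65 CPM against 31.1 ± 11.2 CPM (log2 0.18, adjusted p = 0.614). The other MYH11 copy, ENSDARG00000100972, rose by 0.96 log2, and the other FLNC copy, ENSDARG00000018566, was not called (log2 1.15, adjusted p = 0.19). Mesothelium had 8 of 13 higher (61.5%, median 0.73), among them BNC2 (log2 0.91, lost without KO-labelled pool 4 at adjusted p = 0.0508). Its members WT1, wt1b, podxl and krt8 are also counted in the gonad soma, kidney tubule or epithelial lists, so it is not a separate set of genes. Adipocyte genes had 11 of 22 higher (50%, median 0.63). The fatty acid transporter CD36 rose by 1.14 log2 and the lipase LPL (ENSDARG00000098720) by 0.91 log2, while the adipocyte regulator pparg, chosen after its values were seen, was at 6.12 ± 1.17 CPM against 4.81 ± 0.446 CPM (log2 0.35, adjusted p = 0.122). Without KO-labelled pool 4 the higher calls of the smooth muscle, mesothelium and adipocyte lists numbered 5, 1 and 2. Without HET-labelled pool 3 they numbered 5, 2 and 4, and with the axis as covariate there were none in these lists. BNC1, lepa and PDLIM7, which belong to them, had no read in any of the 8 pools.

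**Figure D4:**
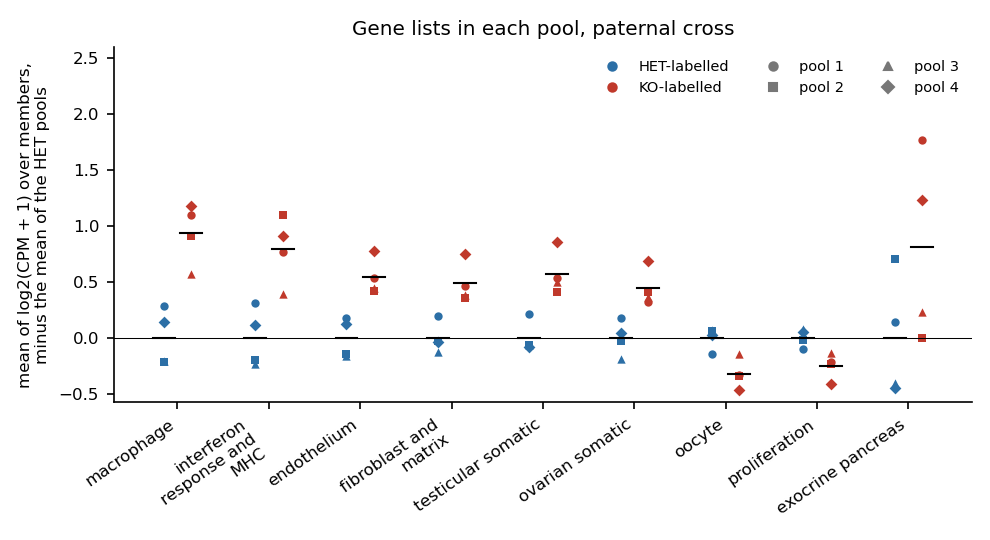
Mean log2(CPM + 1) over the members of 9 lists in each pool, less the mean of the HET-labelled pools (bar at the mean of 4 pools). KO-labelled pools lie above for macrophage (0.57 to 1.18 against -0.21 to 0.28) and mostly below for oocyte (-0.46 to -0.15 against -0.15 to 0.07), and exocrine pancreas spreads within each label.

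Nearly all oocyte genes with a call were lower in KO-labelled pools. Of 41 tested, 24 were called lower and 1 higher (median -0.34; 58.5% of the list lower against 9.14% of all genes), and 15 were called lower with upper-quartile scaling. The other 16 were not called, and the fold changes ran from -0.77 to 0.80, the latter that of the linker histone gene H1-10, the member called higher. BTG4, which clears maternal RNA in eggs, measured 451, 393, 514 and 334 CPM in KO-labelled pools 1 to 4 and 561, 574, 820.0 and 928 CPM in HET-labelled pools 1 to 4. HET-labelled pools 3 and 4 were highest and the labels did not overlap (log2 fold change -0.77 ± 0.18 SE, adjusted p = 0.0113). The oocyte growth factor bmp15 measured 66.9, 58.9, 66.0 and 49.2 CPM in KO-labelled pools 1 to 4 and 75, 81.4, 98.5 and 102 CPM in HET-labelled pools 1 to 4. Here too every KO-labelled pool was below every HET-labelled pool (log2 fold change -0.57 ± 0.15 SE, adjusted p = 0.0164), but the call was lost without HET-labelled pool 3 at adjusted p = 0.0578 or KO-labelled pool 4 at 0.0654. The claudin-like gene cldnd fell by 0.51 log2 and nanog, stored in eggs for the embryo, by 0.52 log2 (lost without KO-labelled pool 4 at adjusted p = 0.0543). The egg coat gene zp2.5, the most abundant of the list, was at 7336 ± 837 CPM against 9483 ± 1661 CPM (log2 -0.37), with overlap, and was not called without HET-labelled pool 2 at adjusted p = 0.145, HET-labelled pool 3 at 0.106, KO-labelled pool 1 at 0.0874, KO-labelled pool 2 at 0.0910 or KO-labelled pool 4 at 0.138. Reads of the zp copies may be shared. The summed level of the list was 36614 to 46891 CPM in KO-labelled and 47185 to 59183 CPM in HET-labelled pools, without overlap. Without zp2.5 the sums overlapped, at 30144 to 38413 and 38388 to 47512 CPM. Lower calls numbered 3 without KO-labelled pool 4, 5 without HET-labelled pool 3 and 0 with the axis as covariate.

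Of 16 early germ cell genes tested, 5 were called lower (31.25%, against 9.14% of all genes) and none higher (median -0.12), and 1 was called lower without KO-labelled pool 4, 3 without HET-labelled pool 3 and none with the axis as covariate. DDX4 was not called (log2 -0.00, adjusted p = 0.992), nor were the piRNA pathway genes PIWIL1 (log2 0.09, adjusted p = 0.485) and TDRD1 (log2 -0.06, adjusted p = 0.624), while ca15b, a carbonic anhydrase gene of primordial germ cells, fell from 1148 to 714 CPM (log2 -0.68). The translation regulator DAZL fell by 0.38 log2 (lost without KO-labelled pool 4 at adjusted p = 0.0569). Among 29 meiosis genes 4 were called higher (13.8%) and 2 lower (median 0.24), and among 27 spermatid genes 4 higher (14.8%) and 1 lower (median 0.15), shares of higher calls close to the 14.1% of all genes. No meiosis or spermatid gene was called without KO-labelled pool 4 or with the axis as covariate, and without HET-labelled pool 3 the sole call was 1 spermatid gene, higher. Of 66 proliferation genes 25 were called lower (37.9%) and 1 higher (median -0.26), or 17 lower with upper-quartile scaling. The replication factor GINS2 fell by 0.65 log2, the mitotic cyclin CCNB2, at 481 ± 77.0 CPM against 724 ± 104 CPM, by 0.59 log2 and the kinase aurka by 0.55 log2. These calls were lost without KO-labelled pool 4 at adjusted p = 0.0510 for GINS2, KO-labelled pool 4 at adjusted p = 0.0507 for CCNB2 and HET-labelled pool 3 at adjusted p = 0.0533 or KO-labelled pool 4 at 0.0582 for aurka. No proliferation gene was called without KO-labelled pool 4 or with the axis as covariate, and 3 were called lower without HET-labelled pool 3.

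The circadian clock genes included the steepest of the named falls. The clock is a feedback loop in which CLOCK and BMAL proteins drive the PER, CRY and REV-ERB genes. NR1D1, a REV-ERB repressor, measured 0.861, 1.15, 0.918 and 1.28 CPM in KO-labelled pools 1 to 4 and 7.22, 5.50, 3.90 and 7.60 CPM in HET-labelled pools 1 to 4. The KO-labelled pools were alike and all lay far below the lowest HET-labelled pool (log2 fold change -2.52 ± 0.31 SE, adjusted p = 0.00258). The gene nfil3-5, whose family represses D-box targets, measured 21.9, 18.4, 20.7 and 25.03 CPM in KO-labelled pools 1 to 4 and 7.22, 4.49, 3.94 and 5.79 CPM in HET-labelled pools 1 to 4. It moved the other way with no overlap (log2 fold change 2.01 ± 0.24 SE, adjusted p = 0.00258). The nuclear receptor rorcb also rose, from 3.86 to 14.3 CPM (log2 1.89), and PER1 (ENSDARG00000056885) fell from 7.02 to 2.55 CPM (log2 -1.45). The other PER1 copy, ENSDARG00000012499, was at 34.5 ± 3.34 CPM against 38.1 ± 5.28 CPM and PER2 at 35.2 ± 1.93 CPM against 40.0 ± 5.80 CPM, neither called. Of 46 clock genes 6 were called higher (13.0%, against 14.1% of all genes) and 10 lower (21.7%, against 9.14%; median -0.13), and upper-quartile scaling gave 7 and 6. There were 2 higher and 4 lower without KO-labelled pool 4, and without HET-labelled pool 3 there were 3 and 4. With the axis as covariate 2 were higher and 7 lower, and NR1D1 stood at -3.25 (adjusted p = 4.88e-07) and nfil3-5 at 1.39 (adjusted p = 6e-06). The time of day at which gonads were taken is not in the labels, and its part in these values was not tested.

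FKBP5, KLF9 and DDIT4, 3 genes that glucocorticoids are known to induce, were picked out after their values were seen, and no list of such genes was tested. The co-chaperone gene FKBP5 was at 28.2 ± 5.13 CPM against 50.9 ± 12.2 CPM (log2 -0.85), lost without HET-labelled pool 4 at adjusted p = 0.0559, KO-labelled pool 2 at 0.0604 or KO-labelled pool 4 at 0.0515. The transcription factor KLF9 was at 7.59 ± 0.579 CPM against 12.3 ± 1.096 CPM (log2 -0.70) and the growth inhibitor DDIT4 at 16.7 ± 3.63 CPM against 31.2 ± 2.07 CPM (log2 -0.90), both called in all 8 fits without 1 pool. In the maternal cross the log2 fold changes of these 3 were 1.12 ± 0.24 SE, 1.02 ± 0.12 SE and 0.37 ± 0.13 SE, of the opposite sign. By edgeR's test KLF9 alone was called in that cross (adjusted p = 0.00106), with FKBP5 at 0.0706 and DDIT4 at 0.365. The test of the difference between crosses gave adjusted p = 0.0314 for FKBP5, 0.000179 for KLF9 and 0.00766 for DDIT4. In the wider list of stress and early response genes 14 of 59 were called higher (23.7%, against 14.1% of all genes) and 8 lower (13.6%, against 9.14%; median 0.15). That list had 4 higher and 4 lower without KO-labelled pool 4, 5 and 5 without HET-labelled pool 3, and 0 and 5 with the axis as covariate.

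In 3 lists of signalling genes more members were called higher than lower. These lists are not confined to the soma, and that of TGF-beta and BMP includes the oocyte gene bmp15. Of 67 TGF-beta and BMP genes 26 were called higher (38.8%, against 14.1% of all genes) and 5 lower (median 0.36). The receptor TGFBR2 (ENSDARG00000059363) rose from 2.89 to 7.07 CPM (log2 1.29) and the transducer SMAD3 (ENSDARG00000010207) by 0.71 log2, while the maternal ligand gdf3, the most abundant member, fell from 651 to 476 CPM (log2 -0.45). The other SMAD3 copy, ENSDARG00000036096, rose by 0.96 log2, and the other TGFBR2 copy, ENSDARG00000034541, was not called. Of 57 Wnt genes 17 were higher (29.8%) and 1 lower (median 0.32). The receptors FZD2 (log2 1.09) and LRP5 (log2 0.55) and the secreted DKK3 (ENSDARG00000070683, log2 1.01) rose, while CTNNB1, beta-catenin, was at 269 ± 11.5 CPM against 267 ± 8.22 CPM and was not called, nor was the other DKK3 copy, ENSDARG00000103591. In a list of 11 genes of the miR-214 locus, the Hedgehog pathway and gsdf, 5 were higher (45.5%) and 1 lower (median 0.51). The Hedgehog transducer SMO rose by 0.90 log2. SUFU, the reported miR-214 target of zebrafish embryos, fell by 0.28 log2, from 90.4 to 74.5 CPM, a call lost without HET-labelled pool 2 at adjusted p = 0.0505, HET-labelled pool 3 at 0.0977, HET-labelled pool 4 at 0.0783, KO-labelled pool 2 at 0.0603 or KO-labelled pool 4 at 0.123. Summed levels overlapped for TGF-beta and BMP genes, at 1933 to 2253 CPM in KO-labelled and 1931 to 2183 CPM in HET-labelled pools. Those of Wnt genes did too, at 1090 to 1188 and 1038.5 to 1169 CPM. The sums of the third list did not overlap, but without gsdf they did, at 135 to 146 and 136 to 146 CPM. Without KO-labelled pool 4 the higher calls of these 3 lists came to 3, 6 and 2, without HET-labelled pool 3 to 8, 6 and 3, and with the axis as covariate to 0, 1 and 0.

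Markers of neighbouring organs were checked because dissected gonads can carry them. Exocrine pancreas genes had the highest median of all lists (log2 1.52), yet 0 of 28 were called by edgeR's test. Their summed level was 403, 57.1, 82.1 and 244 CPM in KO-labelled pools 1 to 4 and 72.9, 141, 32.8 and 31.6 CPM in HET-labelled pools 1 to 4. KO-labelled pools 1 and 4 were high and the labels overlapped. Liver had 2 of 37 genes called higher, with a median of -0.19 and 17 of the 37 fold changes positive. The calls were led by the retinol carrier RBP4, at 164 against 81.1 CPM (log2 1.01, lost without KO-labelled pool 4 at adjusted p = 0.0541). RBP4 made up 58.7% of that list's summed CPM. Skeletal muscle had 1 of 51 higher and 2 lower, but 44 of the 51 had a positive fold change (median 0.53). Its sums overlapped, at 1918 to 3047 CPM in KO-labelled and 1838 to 2770 CPM in HET-labelled pools. Intestine had 2 of 25 higher (median 0.10), and red blood cells had 1 of 19 higher (median 0.07). Motile cilia had 1 of 16 higher and 1 lower (median 0.05), and neurons and glia 3 of 23 higher (median 0.37). Kidney tubule had 3 of 41 higher and 3 lower, with a median of -0.25 and 14 of the 41 fold changes positive. The nephric transcription factor PAX2 was among the higher genes (log2 1.19). In each of these 8 lists the share called higher was below the 14.1% of all genes, and each had 0 to 2 higher calls without KO-labelled pool 4 or without HET-labelled pool 3 and none with the axis as covariate. Epithelial genes had 10 of 42 higher (23.8%) and 3 lower. None was called higher without KO-labelled pool 4 or without HET-labelled pool 3, where 1 was lower in each fit, and with the axis as covariate 0 were higher and 6 lower. krt8 stood at 529 ± 96.1 CPM against 288 ± 48.0 CPM (log2 0.88, lost without HET-labelled pool 3 at adjusted p = 0.0538 or KO-labelled pool 4 at 0.0599), while epcam fell from 1089 to 747 CPM (log2 -0.54). The part of such tissue in the gains described above was not tested.

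Large rises, 5.64% of all genes, were 22 of the 35 macrophage genes, 22 of the 44 interferon and antigen-presentation genes, 11 of the 67 of TGF-beta and BMP signalling, 8 of the 34 of endothelium, 8 of the 57 of the Wnt pathway, 7 of the 63 of fibroblasts with matrix and 7 of the 18 of the testis soma. This order is by count, which favours long lists. Among shorter lists, large rises were 6 of 22 adipocyte, 5 of 18 B cell and 4 of 26 T cell genes. They were also 4 of 21 genes of the ovarian soma, 4 of 19 of steroid synthesis and 4 of 19 of neutrophils. The rest were spread over other lists with fewer each, and some genes sit in more than 1 list. As only 123 of the 1223 large rises belong to any list, these counts describe only the part that was looked up.

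The 2 pools at the ends of the within-group axis decided many calls. Without KO-labelled pool 4, 1026 genes were called (816 higher, 210 lower), and without HET-labelled pool 3, 1286 were (951 higher, 335 lower). Of 195 called genes among those the text may name, 78 kept the call in all 8 fits without 1 pool, and IRF8, robo4, SOX9 (ENSDARG00000003293), BTG4 and NR1D1 are among them. With the axis as covariate 187 genes were called (0.862%), 132 higher (0.609%) and 55 lower (0.254%), of which 154 were also called without it, each with the same sign. IRF8, c1qa, robo4 and the clock genes NR1D1, PER1 (ENSDARG00000056885), nr1d2a, nfil3-5 and rorcb were in that smaller set. gsdf, amh, STAR, BTG4 and the called FN1 copy were not. As the labels differ along this axis, the covariate also takes up a difference between them.

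In the maternal cross, which shares no pool with this comparison, 43 genes were called between KO and HET (0.198%), 34 higher (0.157%) and 9 lower (0.0415%). The medians of the lists there stood at 0.23 for macrophage genes, 0.02 for interferon genes, 0.17 for the testis soma and -0.19 for oocytes. The test of whether the KO effect differed between crosses called 41 genes (0.189%), so for most genes named here a difference between crosses was not shown. For gsdf the maternal-cross fold change was -0.01 ± 0.26 SE on the log2 scale and the adjusted p of the difference 0.161. For IRF8 these values were 0.32 ± 0.27 SE and 0.119, and for NR1D1 -0.85 ± 0.31 SE and 0.102. VEGFC, the lymphatic growth factor, chosen after its values were seen, moved in opposite directions, with 1.33 here and -1.52 in the maternal cross (adjusted p of the difference 0.00118). aplnra (1.34 and -0.65, 0.00671) and FZD2 (1.09 and -0.18, 0.0463) differed as well. In contrast, nfil3-5 rose in both crosses, by 2.01 log2 and 1.497.

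**Figure D5:**
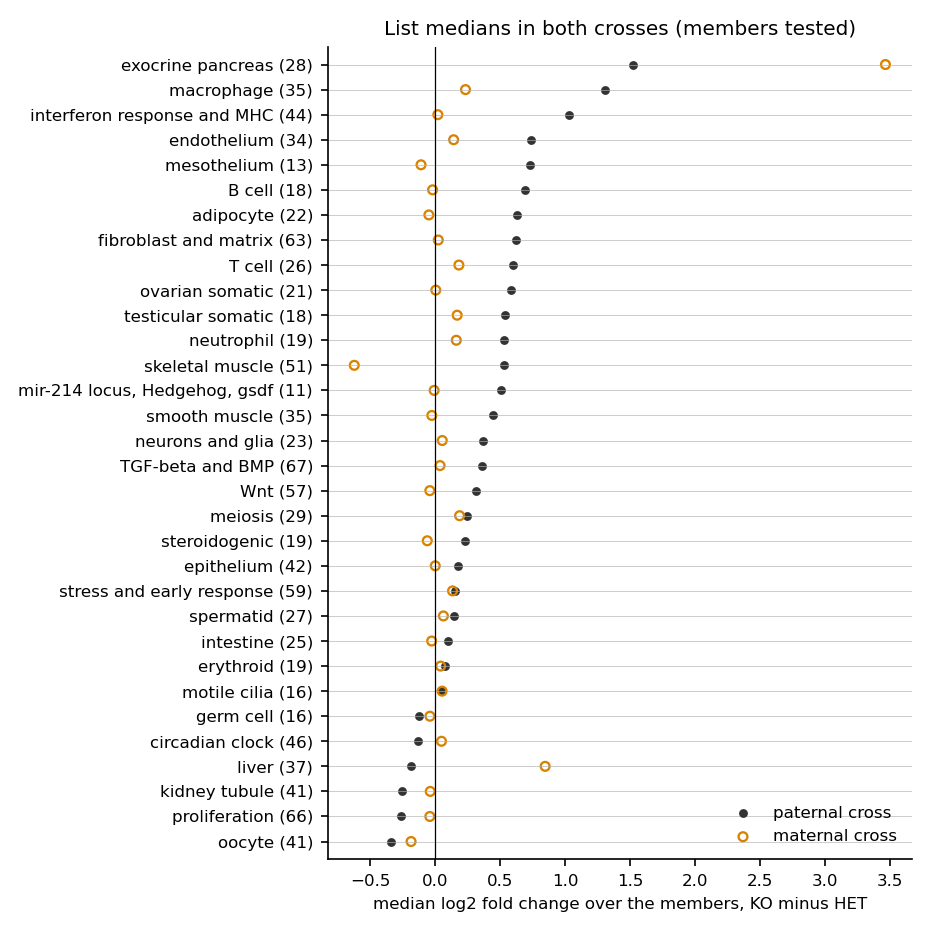
Median log2 fold change, KO against HET, over the tested members of each list (number in parentheses) in the paternal cross (filled) and the maternal cross (open). The paternal medians of macrophage and interferon genes (1.303 and 1.03) have maternal counterparts of 0.23 and 0.02, and exocrine pancreas lies furthest right in both (1.52 and 3.46).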

How the data were processed

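Bulk poly(A) RNA of 16 gonad pools was sequenced for 84 cycles as single reads on 1 flow cell from stranded libraries, per the labels' protocols. The authors deposited whole-number counts per Ensembl gene, not normalized. STAR 2.4.1d, featureCounts 1.4.6, DESeq2 and build danRer10 are named in the submitters' processing notes, without role or order, and the strand setting is not given in the sources used here, so overlapping and antisense genes may share counts. All 16 columns matched a sample by name and 0 other columns were present. No replicate was merged.

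From the counts, edgeR 4.0.16 (R 4.3.3) fitted 1 coefficient per group over all 16 libraries with TMM scaling and its quasi-likelihood test. Genes passed a filter of about 10 counts (filterByExpr), which left 21683 of 31953, 3284 of which had no count. The Benjamini-Hochberg adjustment covered every tested gene, with a threshold of 0.05, and CPM uses the scaled library sizes. Of the gene IDs 26121 were paired with a symbol through a reference table. Paralogs that share an upper-case symbol are told apart by ID, and near-identical copies are uncertain. The 32 gene lists hold 1198 symbols, of which 1063 matched, 834 of them exactly apart from case. The rest matched after the paralog suffix was dropped, through an upper-case symbol that every copy of a gene shares. Copies that a list does not name can therefore be counted as its members. Members and lists were chosen with earlier results of these data known.

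Named genes were the 15 largest rises and falls (symbol, mean of at least 1 CPM, called, no overlap of the 4 and 4 CPM values), the 3 called members with the smallest p and the most abundant member of each list, and any measured member of the germ cell, oocyte, gonad soma, steroid, clock and miR-214 locus lists. Others were chosen after their values were seen and are marked so. List means use log2(CPM + 1). The axis is the first principal component of the deviations from group means, and the covariate is each library's projection on it with the group mean kept, chosen after seeing the data. Alternatives covered scaling, filters, DESeq2 1.42.0, a replicate block, each pool left out, the axis and thinning to the smallest library. The procedure was checked on simulated counts in which genes varied independently and a small set was changed, as many up as down. That setting lacks the shared axis and the many calls of these data, so the check does not cover them. Genome sequence was not used. Results for a few genes are not reported here.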

Additional observations from a re-analysis of the deposited data

Results flagged for a closer look

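Among 128 sets of 4 pools checked for 1 pool apart from the other 3, 12 stood out, and chance alone marks about 1 in 20. KO-labelled pool 2 had 22.6 M counts where the other 3 had 24.0 to 24.3 M, and HET-labelled pool 1 had 26.4 M where the others had 29.5 to 30.1 M. HET-labelled pool 1 was also far from its group, above it each time, for INHBA (ENSDARG00000024759, 0.729 CPM, others 0.187 to 0.219), lgals3bp.1 (101 CPM, others 31.0 to 42.8), rtn4rl2a (5.14 CPM, others 1.25 to 1.82), zgc:194655 (1.46 CPM, others 0.474 to 0.524), hyal6 (36.5 CPM, others 13.98 to 17.0) and MLLT11 (14.7 CPM, others 9.22 to 9.93). KO-labelled pool 2 had 28.3 CPM of rtn4rl2a (others 8.69 to 9.89). KO-labelled pool 4 had 8.38 CPM of ULK2 (others 5.01 to 5.46). The summed level of Wnt genes was 1188 CPM in KO-labelled pool 3 (others 1090 to 1107), and that of kidney tubule genes was 1148 CPM in HET-labelled pool 4 (others 981 to 1006).

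The KO effect differed between the crosses, by edgeR's test of the difference itself, for 9 named genes. The paternal-cross log2 fold change was above the maternal one by 2.63 for si:dkey-78k11.9 (2.47 and -0.16), 1.99 for aplnra (1.34 and -0.65), 1.27 for FZD2 (1.09 and -0.18) and 2.85 for VEGFC (1.33 and -1.52). For nr1d2a the difference was -1.80 (-1.25 and 0.55), for ULK2 -1.74 (-0.99 and 0.75), for KLF9 -1.72 (-0.70 and 1.02), for FKBP5 -1.97 (-0.85 and 1.12) and for DDIT4 -1.27 (-0.90 and 0.37).

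Outside the tested genes, MIR214 had 19 reads over the 4 KO-labelled pools of the paternal cross and 2 over the 4 HET-labelled pools.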

How the results depend on the processing

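The count of 5034 called genes became 187 with the axis as covariate (chosen after seeing the data), 8485 with the axis centred in each group and 651 at an adjusted p of 0.01, and 1026 to 5980 with 1 pool left out (KO-labelled pool 4 gave the fewest and HET-labelled pool 3 gave 1286). The 1223 large rises became 805 with a stricter filter on low counts, 40 with the axis as covariate, 411 at an adjusted p of 0.01 and 451 to 1609 with 1 pool left out. The 39 large falls became 25 with upper-quartile scaling, 61 with no filter, 14 with the stricter filter, 9 at an adjusted p of 0.01 and 19 to 63 with 1 pool left out. The 41 genes that differed between crosses became 19 with upper-quartile scaling, 637 with the DESeq2 Wald test, 70 with no filter, 16 with the stricter filter, 15 after thinning to the smallest library (chosen after seeing the data), 2693 and 256 with the axis centred in each group and with group means kept, and 15 to 59 with 1 pool left out. The 43 maternal-cross genes became 208 with DESeq2, 4 with only that cross's libraries, 538 and 289 with the 2 forms of the axis and 28 to 61 with 1 pool left out. With the replicate number as a block (replicate block), 3442 genes were called in the paternal cross (2292 higher, 1150 lower), 13 differed between crosses and 21 were called in the maternal cross. Deviations of same-numbered KO-labelled and HET-labelled pools correlated at 0.03, -0.09, 0.25 and -0.05 across genes, so the numbers were not taken to pair the pools. Of all calls 60.6% were higher, 76.5% with upper-quartile scaling (3577 higher, 1101 lower) and 52.0% with the DESeq2 Wald test (3194 higher, 2944 lower). Among named genes 1 changed sign with a call: CRY1 (ENSDARG00000045768) was at -0.56 (adjusted p = 0.0443) with the axis as covariate and 0.02 without it. Of these genes 162 lost their call with the axis as covariate, 111 without KO-labelled pool 4, 95 without HET-labelled pool 3 and 24 with the replicate block. Causes were not tested. Depth limits the scarce genes: 97 large rises had under 10 reads in every HET-labelled pool.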
